A study of Homo sapiens with 18 samples.

Results

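The APOBEC3 genes encode cytidine deaminases, enzymes that turn cytosine into uracil in single-stranded DNA. Here they are the 7 genes *APOBEC3A*, *APOBEC3B*, *APOBEC3C*, *APOBEC3D*, *APOBEC3F*, *APOBEC3G* and *APOBEC3H*, found by the gene name printed beside each non-control spot. Of the 36204 gene names on an array they are 7, with 9 of its 50599 probes and 18 of its 58717 spots other than controls. The family was chosen by the fall of *APOBEC3G* when Curcumin was added to OXA in HTOXAR3. Every value of a member in that comparison is therefore given as a description with no p, and so is every value of *APOBEC3G* that uses treated HTOXAR3 cells. Tests of the other members in treated HTOXAR3 cells use some of the same arrays and are not independent of that choice.

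Total RNA was profiled on 18 one-colour arrays, with 3 labelled biological replicates per group and 6 groups. The parental line HT29 comes from a human colorectal adenocarcinoma and is sensitive to oxaliplatin (OXA), a platinum drug that forms adducts with DNA, and HTOXAR3 is an OXA-resistant derivative of it, selected by growing the cells in ever more of the drug. Each line was left untreated, or was treated for 24 h with OXA or with OXA plus Curcumin, the yellow polyphenol of turmeric. The OXA dose was 10 µM for HT29 but 30 µM for HTOXAR3, whereas the Curcumin dose was 10 µM throughout. Any comparison of the treated lines therefore also compares different OXA doses, which cannot be told apart from the line, and HTOXAR3 is a single subline. Curcumin alone was not analysed here.

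In textbook terms these enzymes are part of intrinsic immunity. They mutate the complementary DNA of retroviruses and limit the movement of retroelements, and they stand side by side in a cluster on chromosome 22. *APOBEC3G*, *APOBEC3F*, *APOBEC3D* and *APOBEC3B* have paired zinc-binding domains, and *APOBEC3A*, *APOBEC3C* and *APOBEC3H* have a single domain. Interferon raises many of them in leukocytes. *APOBEC3B* is best known in epithelial tumours, where nuclear deamination is linked to clustered C-to-T changes.

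Values are normalised log2 intensities, so that a difference of 1 is a 2-fold change, and ± gives the SD over 3 arrays unless SE is written. A probe's intensity is not comparable with that of another probe. A probe was counted as detected on an array when at least 0.5 of its spots were well above background by the scanner software. A gene was called when its Benjamini-Yekutieli adjusted p in limma was below 0.05 and its fold change was above 1.2.

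The 4 probes on which the results turn are shown first, because 2 of them are nearly the same sequence. They are designed 60-base oligonucleotides, written 5′ to 3′, with capitals for the bases that the *APOBEC3C* and *APOBEC3F* probes share when the second is shifted by 7 bases against the first.
APOBEC3B probe: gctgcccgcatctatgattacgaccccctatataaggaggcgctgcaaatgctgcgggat
APOBEC3C probe: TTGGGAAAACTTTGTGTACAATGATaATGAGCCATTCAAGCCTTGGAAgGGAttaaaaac
APOBEC3F probe: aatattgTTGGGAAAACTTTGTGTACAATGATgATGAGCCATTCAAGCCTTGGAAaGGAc
APOBEC3G probe: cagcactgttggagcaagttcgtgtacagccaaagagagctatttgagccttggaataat

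In the GRCh37 positions of the array's annotation, these probes lie at chr22:39387538-39387597 for *APOBEC3B*, chr22:39414287-39414346 for *APOBEC3C*, chr22:39448588-39448647 for *APOBEC3F* and chr22:39477481-39477540 for *APOBEC3G*. The *APOBEC3C* and *APOBEC3F* probes matched at 50 of 53 overlapping bases, with a longest shared run of 25. The *APOBEC3G* probe matched that of *APOBEC3C* at 34 of 52 bases and that of *APOBEC3F* at 37 of 59, with a longest run of 10 for each. The share of the *APOBEC3C* signal that came from *APOBEC3F* RNA, or the reverse, was not tested. The *APOBEC3B* probe is also assigned by the array's annotation to an *APOBEC3A* transcript and to the *APOBEC3A_B* fusion transcript, and their share of its signal was not tested. The position of the probes within exons or untranslated regions was not analysed here. A second *APOBEC3F* probe, at chr22:39440368-39440427, shared a run of at most 6 bases with the first.

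The other members were measured by a probe at chr22:39359092-39359151 for *APOBEC3A*, a probe spanning chr22:39427939-39428222 for *APOBEC3D*, and probes at chr22:39497974-39498033 and chr22:39497261-39497320 for *APOBEC3H*. The 60 bases of the *APOBEC3D* probe span 284 bases of genome and so are not contiguous there. *APOBEC3C* was printed as 10 spots per array, and every other probe as 1. *APOBEC3B* was detected on 18 of 18 arrays, *APOBEC3G* on 10, *APOBEC3C* and *APOBEC3D* on 9 each, and *APOBEC3A* on 2. The main probe of *APOBEC3F* was detected on 9 arrays, all of HTOXAR3, and its second probe on 15, of which 6 were HT29. Neither *APOBEC3H* probe was detected on any array.

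Spots well above background made up 52.4% to 63.6% of an array, controls aside, and arrays of one group correlated at 0.984 or more. Of 10 epithelial markers 8 were detected on all 18 arrays, among them *EPCAM* and *KRT20*. *CDX2* was detected on 10 arrays and *CEACAM5* on 16. Of 9 lymphoid markers measured 3 were detected on all arrays and 2 on none, the latter being *CD3G* and *CD79B*, and the summed lymphoid level stayed between 11.05 and 11.60 over all arrays. Of 5 myeloid and pan-leukocyte markers measured 4 were detected on all arrays, *PTPRC*, *CD14*, *CD68* and *ITGAM*. Their sums ran from 11.24 to 11.38 in untreated HT29 and from 11.59 to 11.67 in untreated HTOXAR3, and lay between 10.48 and 11.67 over all groups. The part of these markers in the differences between the lines was not tested. Of 5 fibroblast markers none was detected on all arrays, with *COL1A1* on 10, *LUM* on 5, *DCN* on 1 and *COL1A2* and *COL3A1* on 0. The arrays lay on 3 slides. Slides 2 and 3 each held all 6 groups, and slide 1 held untreated and OXA-treated HT29 only. In such bulk RNA, fewer cells that express a gene and less of its RNA per cell cannot be told apart.

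**Figure D1:**
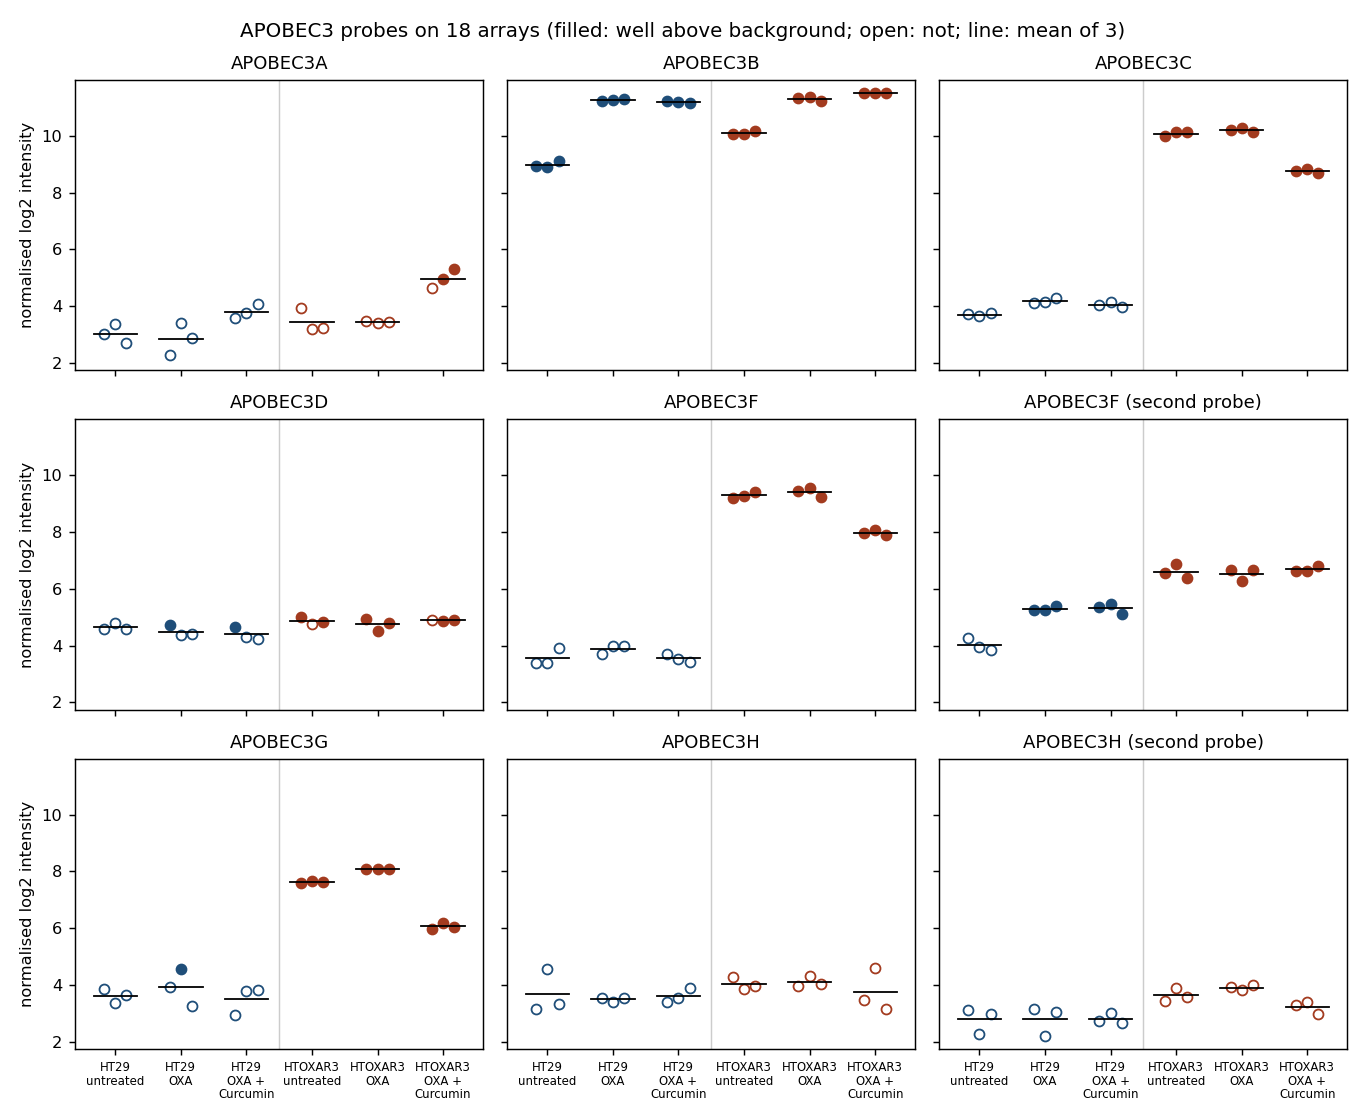
Each panel shows 1 probe, with the normalised log2 intensity of each of the 18 arrays on the y axis and the 6 groups on the x axis; filled points are well above background, open points are not, and lines are means of 3 arrays. *APOBEC3C*, *APOBEC3F* and *APOBEC3G* stand at 5.96 or more on all 9 HTOXAR3 arrays and at 4.56 or less on all 9 HT29 arrays, *APOBEC3B* is filled everywhere, and the second *APOBEC3F* probe has another pattern than the first.

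*APOBEC3G*, which enters virus particles and mutates retroviral DNA, was detected on all 9 HTOXAR3 arrays and on 1 of the 9 HT29 arrays. In untreated HT29 it read 3.85, 3.37 and 3.64, not well above background on any array. In untreated HTOXAR3 it read 7.61, 7.65 and 7.64, so that every HTOXAR3 array lay above every HT29 array. The difference of 4.02 (SE 0.27, adjusted p = 9.04e-07 by limma) is given as at least 11.8-fold, because the HT29 arrays give only a bound. Here at least N-fold sets the brighter mean against the higher, on each dim array, of the probe's own signal and the lowest signal well above background. This is a working bound and not a strict minimum, because a probe can exceed that lowest signal and still not be well above background. Within slides 2 and 3 the difference was 4.26 and 4.0, and with a normexp offset of 50 it was 1.99.

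In HT29 no difference of *APOBEC3G* between treatments was called. It read 3.92, 4.56 and 3.27 after OXA and 2.94, 3.79 and 3.81 after OXA plus Curcumin. The array at 4.56 was the only HT29 array on which the probe was detected. The differences of 0.30 for OXA against untreated (SE 0.27) and -0.40 for OXA plus Curcumin against OXA (SE 0.27) each had an adjusted p of 1 by limma, with 95% intervals from -0.29 to 0.88 and from -0.99 to 0.18. Within slides 2 and 3 the first was 1.19 and -0.37 and so changed sign.

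In HTOXAR3, *APOBEC3G* read 8.08, 8.10 and 8.10 after OXA and 5.96, 6.19 and 6.06 after OXA plus Curcumin. The 3 groups of HTOXAR3 did not overlap, with the OXA arrays highest, the untreated arrays next and the arrays with Curcumin lowest. The rule that chose the family used the gap between the first and the last, which was -2.03 (SE 0.27, 4.07-fold lower) with Curcumin, and -2.12 and -1.98 within slides 2 and 3. Against untreated cells the values were 0.46 after OXA and -1.57 after the combination. With Curcumin the probe was still detected on all 3 arrays, and the mean of 6.07 ± 0.12 stood 2.56 above the HT29 arrays of the same treatment (3.51 ± 0.49), at least 3.33-fold.

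*APOBEC3C*, a single-domain enzyme active against retroelements, was well above background on all 9 HTOXAR3 arrays and on no HT29 array. Untreated HT29 read 3.72, 3.64 and 3.75, with at most 1 of 10 spots well above background on an array. Untreated HTOXAR3 read 9.98, 10.13 and 10.13, with all 10 spots well above background on each. The difference of 6.38 (SE 0.07, adjusted p = 1.69e-14 by limma) corresponds to at least 64.2-fold. The 10 spots of an HTOXAR3 array had a log2 SD between 0.057 and 0.095. With a normexp offset of 50, which draws dim signals together, the difference was 4.16.

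OXA left *APOBEC3C* in HTOXAR3 at 10.22, 10.28 and 10.15, a difference of 0.14 from untreated (SE 0.07, adjusted p = 1 by limma). OXA plus Curcumin brought it to 8.75, 8.82 and 8.69, below all arrays of both other HTOXAR3 groups. Against untreated HTOXAR3 it fell by 1.33 (SE 0.07, 2.51-fold, adjusted p = 1.4e-07 by limma), with -1.31 and -1.37 within slides 2 and 3. Against OXA alone the value was -1.46 (SE 0.07), the comparison used by the rule. The fall from untreated cells rests on the same combination arrays, so its p is not independent of how the family was chosen. The gene exceeded that of HT29 by 6.03 under OXA (at least 63.7-fold, adjusted p = 2.35e-14 by limma) and by 4.71 under OXA plus Curcumin (at least 21.4-fold, adjusted p = 1.71e-13).

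*APOBEC3C* was also called in HT29 against untreated, at 0.48 after OXA (adjusted p = 0.00161 by limma) and 0.34 after OXA plus Curcumin (adjusted p = 0.0238). The arrays read 4.10, 4.16 and 4.30 after OXA and 4.04, 4.13 and 3.97 after the combination. No HT29 group was well above background, with at most 4 of 10 spots on any array, so no fold change is given. Both calls were lost and both signs turned when the processed signal with a floor was used, at -0.33 and -0.23. In that setting the median of all gene names was itself at -0.27 and -0.25, in the same order. The second call was also lost without any 1 untreated HT29 array, or without replicate 1 or 2 of the combination.

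*APOBEC3F*, a paired-domain enzyme that like *APOBEC3G* acts on retroviral DNA, had a pattern close to that of *APOBEC3C* on its main probe. It read 3.38, 3.37 and 3.93 in untreated HT29 and 9.19, 9.26 and 9.42 in untreated HTOXAR3. It was detected on no HT29 array and on all HTOXAR3 arrays. The difference was 5.73 (SE 0.15, at least 35.5-fold, adjusted p = 3.02e-11 by limma). Over 18 alternatives of the processing it ran from 3.44 to 5.92.

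In HTOXAR3 this probe read 9.46, 9.54 and 9.23 after OXA, and 7.96, 8.07 and 7.90 after OXA plus Curcumin. The first group overlapped untreated cells and the second lay below them. It fell by 1.31 from untreated cells (SE 0.15, 2.48-fold, adjusted p = 0.000104 by limma), and by 0.61 when both probes were averaged. Against OXA alone the value was -1.43 (SE 0.15). As for *APOBEC3C*, the p against untreated cells rests on combination arrays that the rule's comparison also used. In HT29 the probe stayed at 3.99 or below under every treatment, and neither treatment was called.

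The distance between the *APOBEC3C* and *APOBEC3F* signals ran from 0.71 to 0.92 over the 9 HTOXAR3 arrays, with an SD of 0.07. The calls of *APOBEC3C* and *APOBEC3F* rest on nearly the same sequence and cannot be counted as separate evidence.

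The second *APOBEC3F* probe read otherwise. It gave 4.28, 3.94 and 3.85 in untreated HT29, not well above background, and 6.54, 6.89 and 6.39 in untreated HTOXAR3. The line difference of 2.58 (SE 0.15, adjusted p over all probes 2.31e-07 by limma) was at least 5.01-fold. In HTOXAR3 it held its level, with 6.65, 6.27 and 6.66 after OXA and 6.64, 6.64 and 6.79 after OXA plus Curcumin. The difference of 0.08 between the combination and untreated cells had a 95% interval from -0.24 to 0.40 and an adjusted p of 1, where the main probe fell by 1.31. Against OXA alone it was 0.16 (SE 0.15), where the main probe gave -1.43.

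In HT29 the second probe rose with OXA to 5.24, 5.24 and 5.40, above every untreated array. The rise was 1.27 (SE 0.15, at least 2.02-fold, adjusted p = 0.000212 by limma over all probes). With OXA plus Curcumin it read 5.36, 5.47 and 5.13, which was 1.30 above untreated (at least 2.05-fold, adjusted p = 0.000145 by limma) and 0.03 from OXA alone (95% interval -0.30 to 0.35). The fitted response of the second probe to OXA differed between the lines (adjusted p = 0.0309 by limma over all probes), but no size is given, because it rests on untreated HT29, where the probe was not well above background on any array. Between the lines it was 1.23 higher in HTOXAR3 under OXA (adjusted p = 0.000309 by limma) and 1.37 higher under the combination (adjusted p = 0.000121). Whether both probes read the same transcripts was not tested.

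*APOBEC3B*, the nuclear enzyme tied to mutation in epithelial tumours, was the member detected in every group, and it rose with OXA in both lines. Untreated HT29 read 8.94, 8.90 and 9.10 and rose to 11.21, 11.27 and 11.31 after OXA. The difference was 2.29 (SE 0.06, 4.88-fold, adjusted p = 2.93e-10 by limma), with 2.38 and 2.21 within slides 2 and 3. Untreated HTOXAR3 began higher, at 10.07, 10.06 and 10.16, and rose to 11.33, 11.37 and 11.21. That difference was 1.21 (SE 0.06, 2.31-fold, adjusted p = 3.85e-07 by limma), with 1.26 and 1.13 within slides.

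The lines therefore differed in *APOBEC3B* before treatment and not detectably after OXA. Untreated HTOXAR3 exceeded untreated HT29 by 1.12 (SE 0.06, 2.18-fold, adjusted p = 1.53e-07 by limma). Under OXA the difference was 0.04, with a 95% interval from -0.10 to 0.18. The response to OXA was smaller in HTOXAR3 by 1.08 on the log2 scale (-1.08, SE 0.09, adjusted p = 0.000101 by limma), with -1.11 and -1.08 within slides 2 and 3. The HTOXAR3 cells had received 30 µM and the HT29 cells 10 µM.

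Adding Curcumin left *APOBEC3B* high. HT29 read 11.23, 11.19 and 11.16 with the combination, a difference of -0.07 from OXA alone (95% interval -0.21 to 0.06, adjusted p = 1 by limma). HTOXAR3 read 11.50, 11.51 and 11.50, above all 3 OXA arrays, a difference of 0.20 (SE 0.06) that is described without a test. Against untreated cells the combination raised it by 2.21 in HT29 (4.64-fold, adjusted p = 3.56e-10 by limma) and by 1.40 in HTOXAR3 (2.65-fold, adjusted p = 3.42e-08). Between the lines under the combination it was 0.31 higher in HTOXAR3 (1.24-fold, adjusted p = 0.0235 by limma), a call that was lost when any 1 of the 6 arrays was left out (adjusted p from 0.0531 to 0.117).

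The order of *APOBEC3B* over the groups was thus untreated HT29, untreated HTOXAR3, then HT29 with the combination, HT29 with OXA, HTOXAR3 with OXA and HTOXAR3 with the combination, at means of 8.98, 10.10, 11.19, 11.26, 11.30 and 11.50. The neighbours at 11.19 and 11.26 and those at 11.26 and 11.30 were not called apart, and the step from 11.30 to 11.50 was not tested. For *APOBEC3G* the order was HTOXAR3 with OXA, untreated HTOXAR3 and HTOXAR3 with the combination at 8.09, 7.64 and 6.07, followed by the 3 HT29 groups between 3.51 and 3.92, which overlapped one another.

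*APOBEC3A*, an interferon-inducible enzyme of myeloid cells, was near background throughout. It was detected on 2 of the 3 arrays of HTOXAR3 with OXA plus Curcumin, which read 4.65, 4.94 and 5.30, and on no other array. Untreated HTOXAR3 read 3.93, 3.20 and 3.22, and HTOXAR3 with OXA 3.47, 3.41 and 3.43. The rise over untreated HTOXAR3 was 1.51 (SE 0.28, adjusted p = 0.00848 by limma), at least 1.4-fold, and 0.41 with a normexp offset of 50. Against OXA alone the value was 1.53 (SE 0.28), without a test, and 0.42 with a normexp offset of 50. The rise over untreated cells was no longer called when untreated HTOXAR3 replicate 2 or 3, or replicate 3 of the combination, was left out (adjusted p 0.0547, 0.0549 and 0.06). In HT29 it read 2.27, 3.40 and 2.87 after OXA and 3.58, 3.76 and 4.06 after the combination, without overlap. That difference of 0.95 was not called (adjusted p = 0.424 by limma), and neither group was well above background. Between the lines under the combination *APOBEC3A* was 1.16 higher in HTOXAR3 (at least 1.54-fold), which was not called (adjusted p = 0.0741 by limma) but was called at normexp offsets of 50 (0.35, adjusted p = 0.00432) and 16 (0.65, adjusted p = 0.00587) and by Benjamini-Hochberg (adjusted p = 0.00669).

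*APOBEC3D* was near background. Its 18 arrays lay between 4.22 and 5.00, and it was detected on 7 of 9 HTOXAR3 and 2 of 9 HT29 arrays. None of its differences was called, the largest being 0.49 between the lines under OXA plus Curcumin (95% interval 0.20 to 0.78, adjusted p = 0.163 by limma). That difference was called by Benjamini-Hochberg (adjusted p = 0.0147) and, at 0.63, without replicate 1 of HT29 with the combination (adjusted p = 0.0356). *APOBEC3H* read between 3.14 and 4.61 on its first probe and between 2.21 and 4.0 on its second. It was not called in any comparison, and no fold change is given for it.

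**Figure D2:**
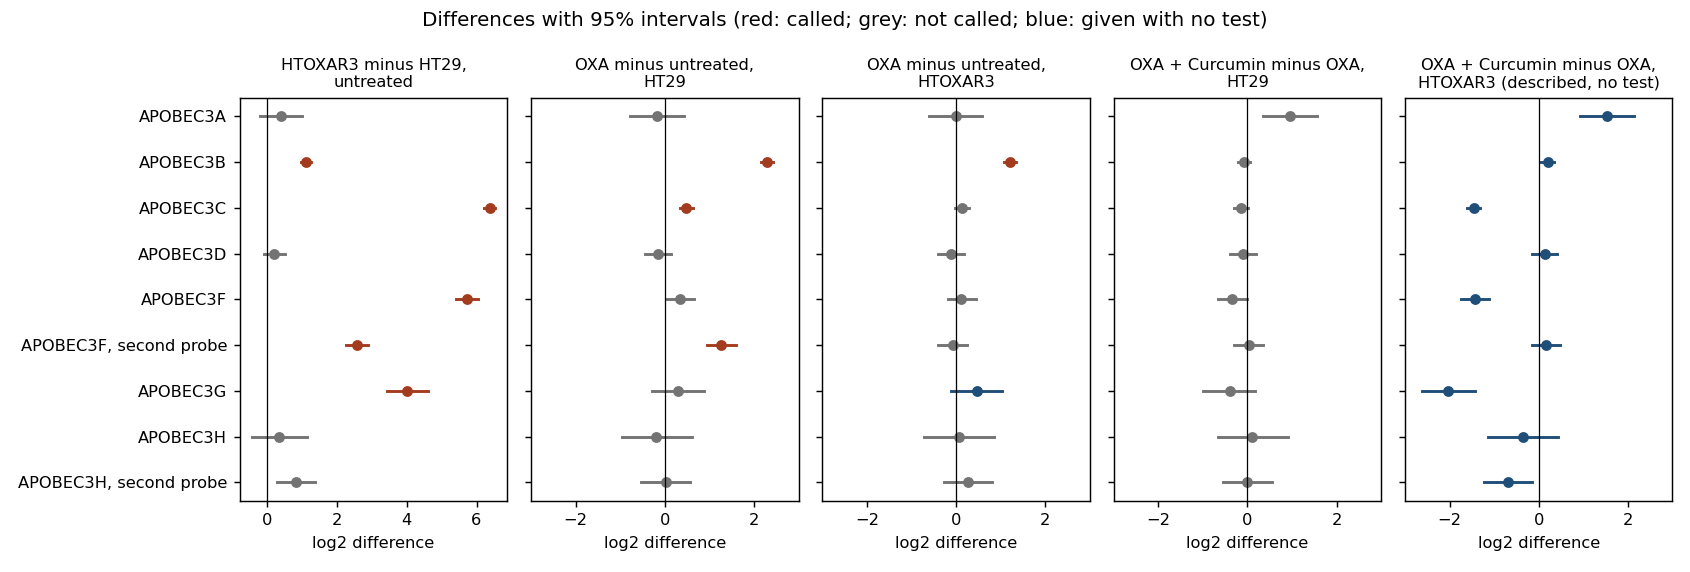
Each panel is a comparison, with the log2 difference on the x axis, the 9 probes on the y axis, points for the fitted difference and bars for its 95% interval; red marks called values, grey values that were not called and blue values given without a test. In the panel of the untreated lines, whose x axis has a wider range, *APOBEC3C*, *APOBEC3F* and *APOBEC3G* are at 6.38, 5.73 and 4.02, *APOBEC3B* is at 2.29 and 1.21 after OXA, and the main probe of *APOBEC3F* at -1.43 parts from the second at 0.16 when Curcumin was added in HTOXAR3.

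Counted over the family, 4 of 7 members were called between the untreated lines, all higher in HTOXAR3, against 11.5% of all 36204 gene names. OXA in HT29 called 2 of 7 (*APOBEC3B* and the dim *APOBEC3C*, both higher), against 15.9%. OXA in HTOXAR3 called 1 of 6 tested, *APOBEC3B*, against 10.2%. Adding Curcumin to OXA in HT29 called 0 of 7 by limma, against 5.53% of gene names. There 2 members had an unadjusted p below 0.05, and Benjamini-Hochberg adjustment called 1, *APOBEC3A*.

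OXA plus Curcumin against untreated called 2 of 7 in HT29, against 18.6% of gene names. In HTOXAR3 it called 4 of 6, with *APOBEC3A* and *APOBEC3B* higher and *APOBEC3C* and *APOBEC3F* lower, against 17.5%. These comparisons share their untreated arrays with those of OXA. Between the lines, 2 of 6 members were called under OXA, against 14.1%, and 3 of 6 under OXA plus Curcumin, against 13.9%. The difference between the lines in the response to OXA called 1 of 6, *APOBEC3B*, against 1.01%. *APOBEC3C* and *APOBEC3F*, with nearly the same probe, are both in the counts of 4 of 7, 4 of 6, 2 of 6 and 3 of 6, and they are the only members in the count of 2 of 6. Each count over 6 members uses treated HTOXAR3 arrays that the rule's comparison also used. Such counts are not independent of how the family was chosen.

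The genes beside the cluster give the chromosomal context of these values. Of 13 flanking genes measured, 3 were higher and 1 lower in untreated HTOXAR3, against 11.5% of all gene names called in either direction. Their median difference was 0.03 where that of all gene names was -0.03. *CBX6*, a Polycomb chromobox gene next to *APOBEC3A*, was higher by 1.19 (SE 0.06, adjusted p = 3.44e-08 by limma). *PDGFB*, a growth factor gene beyond *APOBEC3H*, was higher by 1.06 (SE 0.11, adjusted p = 0.000102). *MGAT3*, a glycosyltransferase gene at the far end, was called lower (adjusted p = 0.00025 by limma) and was detected on 9 of the 18 arrays, so no size is given. Adding Curcumin to OXA called 0 of the 13 in HT29 and 0 in HTOXAR3 by limma, with 3 and 5 at an unadjusted p below 0.05 and 2 and 2 by Benjamini-Hochberg. These comparisons called 5.53% and 8.83% of all gene names, and nothing is read from the second, which the rule used. Inside the cluster, *APOBEC3D* lies between *APOBEC3C* and *APOBEC3F* and differed by 0.22 between the untreated lines (95% interval -0.07 to 0.51).

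**Figure D3:**
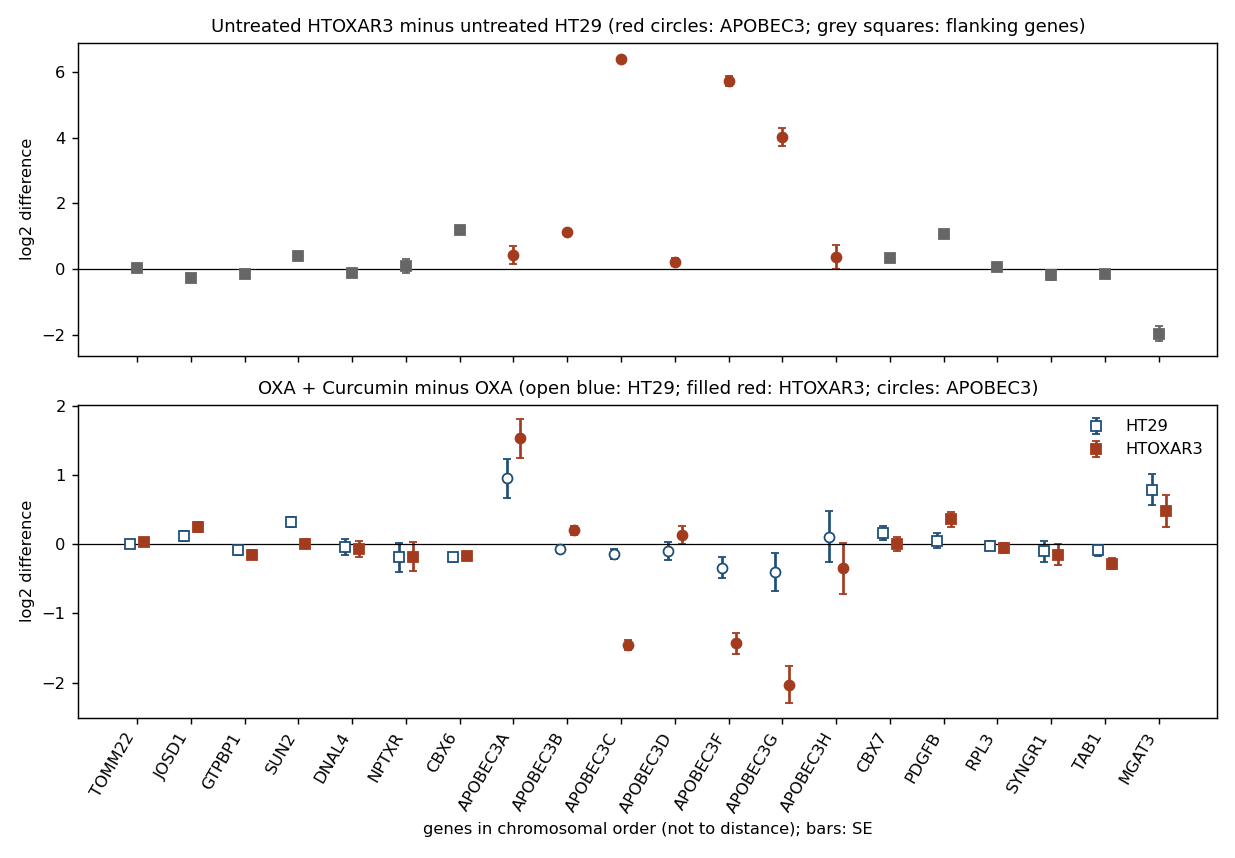
The 20 genes are in chromosomal order on the x axis, without distances, with log2 differences on the y axis and bars for the SE; the upper panel sets untreated HTOXAR3 against untreated HT29 and the lower shows OXA plus Curcumin minus OXA in each line. *APOBEC3C*, *APOBEC3F* and *APOBEC3G* stand at 6.38, 5.73 and 4.02 in the upper panel and at -1.46, -1.43 and -2.03 for HTOXAR3 in the lower, while *APOBEC3D* between them is at 0.22 and 0.13.

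The genes that remove the uracil these enzymes make were called in neither direction between the untreated lines, 0 of 16 by limma against 11.5% of all gene names, with 6 at an unadjusted p below 0.05 and 1 by Benjamini-Hochberg. Adding Curcumin to OXA lowered 2 of 16 in HT29, where 5.53% of all gene names were called, and 6 of 16 in HTOXAR3, and raised none. The latter comparison called 8.83% of all gene names, and since it is the one the rule used, nothing is read from its counts. *DUT*, which clears dUTP, fell by 0.54 in HT29 (adjusted p = 0.00015) and was at -0.60 in HTOXAR3 (adjusted p = 3.88e-05). *UNG*, the main uracil glycosylase, was at -0.58 (adjusted p = 0.000465) and -0.37 (adjusted p = 0.0119) in the same order. *LIG1*, a DNA ligase, was at -0.38 and not called in HT29 (adjusted p = 0.0718), and at -0.54 in HTOXAR3 (adjusted p = 0.00385), all by limma.

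Of 16 other restriction factors, 5 were higher and 2 lower in untreated HTOXAR3, and adding Curcumin raised 2 and lowered 4 in HT29 and raised 1 and lowered 5 in HTOXAR3. Over all gene names these comparisons called 11.5%, 5.53% and 8.83%. *IFITM1*, which blocks virus entry, was 1.93 higher in untreated HTOXAR3 (SE 0.35, adjusted p = 0.0104) and stood at -1.80 with Curcumin against OXA in HTOXAR3 (adjusted p = 0.0235), against -0.19 in HT29, by limma. The difference between the lines in that effect was not called for *IFITM1*, at -1.61 (SE 0.49, adjusted p = 1). Its relatives *IFITM2* and *IFITM3* fell in both lines, by 0.71 and 0.76 in HT29 (adjusted p = 0.0342 and 0.0359 by limma) and with values of -0.80 and -0.81 in HTOXAR3, and *IFITM2* was 0.90 lower in untreated HTOXAR3 (-0.90, adjusted p = 0.00239).

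Transcription factors known from APOBEC3 promoters were measured for 29 genes, of which 5 were higher and 4 lower in untreated HTOXAR3. Adding Curcumin raised 3 and lowered 4 in HT29, and raised 4 and lowered 3 in HTOXAR3, where 11.5%, 5.53% and 8.83% of all gene names were called in the same order. *IRF7*, an interferon-response factor, was lower in untreated HTOXAR3 (-0.66, adjusted p = 6.2e-05 by limma) and higher with Curcumin in HT29 (0.73) and HTOXAR3 (0.57). *MYBL2*, the Myb factor of dividing cells, fell with Curcumin in both (-0.70 and -0.73). *RB1*, the retinoblastoma gene, was 0.62 higher in untreated HTOXAR3 (adjusted p = 3.27e-05 by limma). OXA raised 12 of the 29 and lowered 1 in HT29 (*SP1*, named after its value was seen, -0.33), and raised 8 and lowered 0 in HTOXAR3, with medians of 0.23 and 0.18 where those of all gene names were -0.01 and 0.01. OXA called 15.9% and 10.2% of all gene names in these lines. Of 8 genes whose products work with lentiviral Vif in degrading APOBEC3 proteins, 1 was called between the untreated lines, where 11.5% of all gene names were. It was *UBE2F*, lower in untreated HTOXAR3 (-0.35, adjusted p = 0.0324 by limma). There 5 of the 8 had an unadjusted p below 0.05, and Benjamini-Hochberg adjustment called 3. The core binding factor subunit gene *CBFB* alone was called when Curcumin was added, at -0.46 in HT29 (adjusted p = 0.0038) and -0.47 in HTOXAR3.

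The genes whose values ran most like those of *APOBEC3G* over the 18 arrays were *TGFBI* (Pearson r = 0.981), *GLIDR* (0.978), *SLC14A1* (0.976), *ZSWIM5* (0.974) and *APOBEC3F* (0.973), among 21441 gene names detected on at least 9 arrays. *APOBEC3C* came next with 0.972. Both *APOBEC3F* and *APOBEC3C* met that detection limit on exactly 9 arrays, all of HTOXAR3, where *APOBEC3G* was also high. Those that ran most opposite were *ALDH2* (-0.978), *TM4SF1* (-0.975), *OVGP1* (-0.975), *GULP1* (-0.974) and *FA2H* (-0.974). The arrays form separate groups of cell line, and 418 gene names had an r above 0.9, so these values describe a pattern that many genes share. Within the 9 HTOXAR3 arrays r was 0.979 for *APOBEC3F*, 0.987 for *APOBEC3C*, -0.369 for *APOBEC3D* and -0.421 for *APOBEC3B*. These arrays hold the gap by which *APOBEC3G* was chosen, and they are among the 18. Nothing is therefore read from r over the 9 or the 18 arrays.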

How the data were processed

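The authors deposited the scanner output of each array (Agilent Feature Extraction 10.7.3.1, per the file headers), with linear intensity values that were not normalised between arrays. The submitters' processing notes name limma. Following the study's methods, mean intensity was corrected with normexp (offset 0, as none is stated) against the local background and quantile normalised. Controls were dropped, outlier spots set to missing (5 of 180 readings of *APOBEC3C*, none of other members), spots of a probe averaged, and the brightest probe kept per gene name. A model with 6 group terms was fitted with limma 3.58.1 in R 4.3.3 and tested on simulated data. The members, gene lists and tests were chosen with earlier results of these data known. List genes named are the 3 largest differences among those called between the untreated lines or for adding Curcumin. The list of other deaminases is not reported here. Replicate numbers paired the arrays (every correlation of deviations above 0.1) in 2 of 15 pairs of groups, HT29 untreated with OXA (0.117 to 0.242) and HTOXAR3 OXA with OXA plus Curcumin (0.109 to 0.195). The number of arrays limits the precision. Alternatives were other offsets, scalings, probe choices, filters, blocks by slide and replicate, adjustments, thresholds and leaving out each array.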

Additional observations from a re-analysis of the deposited data

Results flagged for a closer look

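The response of *APOBEC3B* to OXA differed between the lines by the interaction term of the fit, at -1.08 on the log2 scale (SE 0.09, adjusted p = 0.000101 by limma, 3 arrays per group). It rose by 2.29 in HT29, where all 3 OXA arrays lay above all untreated arrays, and by 1.21 in HTOXAR3, where they did so too. Across 24 alternatives the difference ran from -1.14 to -1.01, with adjusted p at most 0.00817. The OXA dose was 10 µM in HT29 and 30 µM in HTOXAR3 and cannot be told apart from the line.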

How the results depend on the processing

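The 3 arrays per group and intensity near background in HT29 limit the precision. Of the values of called members under alternatives, 313 kept direction and call, 32 kept direction only and 2 reversed, namely *APOBEC3C* in HT29 under the processed signal with a floor, at -0.33 for OXA and -0.23 for OXA plus Curcumin against untreated. That setting put the median of all gene names at -0.27 and -0.25 in these comparisons, close to the reversed values. For OXA in HTOXAR3 it put the median at -0.40. For OXA in HT29 the count of 2 became 1 at fold change over 2, at offsets 50 and 16, with the processed signal, with 75th percentile scaling and with only the arrays compared, and for OXA plus Curcumin against untreated in HT29 it became 1 in those settings and with the slide block or the replicate block. Each lost call was *APOBEC3C*. Adding Curcumin in HT29 went from 0 to 1 and the lines under OXA plus Curcumin from 3 to 5 by Benjamini-Hochberg (*APOBEC3A* and *APOBEC3D* added), and the line difference in the OXA response from 1 to 2 with the mean of all probes. That mean also called *APOBEC3F* in HT29, at 0.80 after OXA and 0.65 after OXA plus Curcumin, where the main probe gave 0.33 and -0.01. Leaving out each array, the counts were 4 to 4 for the untreated lines, 2 to 2 for OXA in HT29, 1 to 1 in HTOXAR3, 0 to 0 for adding Curcumin in HT29, 1 to 2 and 3 to 4 for the combination against untreated in HT29 and HTOXAR3, 2 to 2 and 2 to 3 between the lines under OXA and under the combination, and 1 to 1 for the line difference. Between the lines under the combination, the count of 3 arose only without replicate 1 of HT29, where *APOBEC3D* was added and *APOBEC3B* was lost. The replicate block, where numbers pair the arrays of OXA in HT29, left 2 members called there, and elsewhere it lost *APOBEC3C* in HT29 with the combination (adjusted p = 0.071) and *APOBEC3B* between the lines under it (adjusted p = 0.0898, limma) and changed no other call. The fall of *APOBEC3G* with Curcumin in HTOXAR3 ran from -2.18 to -1.46 over 17 settings. *APOBEC3A* in HTOXAR3 was no longer called with the processed signal (0.49), 75th percentile scaling (1.24) or only the arrays compared. The authors' table of log2 values was not run, as its lines carry no names.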
